A study of Sus scrofa with 9 samples.

Results

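Gene expression in porcine cells labelled as immature Sertoli cells was compared between cells that had recovered from heat for 36 h and cells taken before heat. The contrast used 6 of the 9 libraries of the study: 3 control libraries and 3 HS0.5-R36 libraries. Both groups were cells from the testes of fetuses at 80 to 90 days of gestation, kept at 37 °C under 5% CO2 in MEM with 10% serum for 6 h. Control cells were collected before any heat. HS0.5-R36 cells were then held at 43 °C for 0.5 h and returned to 37 °C for 36 h. No transgene, allele or drug is named for either group. Libraries of cells collected at the end of the heat, called HS0.5, are given beside the contrast where they help to place a value in time. No unheated library was kept for the further 36 h, so recovery from heat and longer time in culture cannot be told apart in any value below.

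Levels are FPKM, the number of fragments per kilobase of transcript scaled to the size of the library, so that levels of different genes can be set side by side. The genes described are the 11344 of 20681 in the table that reached 1 FPKM in at least 3 of the 6 libraries. Of these, 10042 reached 1 FPKM in all 6 libraries. A further 492 did so in all 3 HS0.5-R36 libraries and in no control library, and 101 the other way round. Genes of those last 2 kinds entered because 1 group was high and so had to differ. Just inside this limit lay 666 genes at 1 FPKM in exactly 3 libraries, with a median level of 1.12 FPKM, and just outside lay 252 genes that reached it in exactly 2, with a median of 0.804 FPKM. Differences are on the scale of log2(FPKM + 1), HS0.5-R36 minus control. They were tested with limma over all 11344 genes, with p-values adjusted by the Benjamini-Hochberg method and 0.05 as the threshold. A gene is said to have risen or fallen if it passed that threshold. The labels do not say whether the replicates are separate cultures or animals, so the p-values measure only the spread between these libraries.

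Sertoli cells enclose the germ cells in the seminiferous cords of the testis, and before puberty they are immature and still divide. Heat unfolds proteins, and cells answer within minutes by making chaperones under the control of heat shock factor 1, while cell division and ribosome production pause. Cells that leave the division cycle for longer, or settle at high density, lower the genes of DNA replication and of ribosome building and often extend a primary cilium, a single antenna of microtubules that dividing cells take down.

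The labelled cell type was checked against its defining genes, and the match was partial. Of 15 Sertoli markers, 11 were found by symbol and 5 were expressed well enough to be tested. SOX9, the factor that commits a gonad cell to the Sertoli fate, was measured at 6.49, 5.77 and 7.14 FPKM in control replicates 1 to 3 and at 1.41, 1.02 and 1.31 in HS0.5-R36 replicates 1 to 3. AMH, the hormone by which fetal Sertoli cells remove the Müllerian duct, was at 19.3, 26.6 and 20.9 against 6.72, 8.67 and 8.87 FPKM. Both genes were lower in each recovered library than in any control, by -1.73 ± 0.10 and -1.35 ± 0.14 on the log2 scale (SE, limma adjusted p = 1.1e-06 and 3e-05). INHA, DMRT1 and KITLG had no reads in the controls and DHH none in HS0.5-R36, where a count of 0 allows up to 3 reads over the group, and NR5A1 had 1 read in the controls and 6 in HS0.5-R36. SOX8, GATA4, FSHR and CLDN11 were not matched by symbol. CLU, a secreted glycoprotein that Sertoli cells make in quantity but that many epithelia also make, was abundant at 2684, 3749.8 and 2769 FPKM in control and 2849, 2852 and 3148 in HS0.5-R36 and did not pass the test (-0.04, limma adjusted p = 0.83). It was called up under a rescaling to the same sum per library, as TPM (0.31), and after quantile normalization (0.60).

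Markers of a second lineage were plain in both groups. Of 13 markers of kidney tubule and Wolffian duct, 9 were found and all 9 were tested, and their summed level was 195 to 199 FPKM in the control libraries and 409 to 419 in the HS0.5-R36 libraries. PAX2, a transcription factor of the nephric duct, was at 26.5, 21.3 and 28.3 against 46.9, 44.2 and 45.8 FPKM. CDH16, known as kidney-specific cadherin, was at 55.2, 68.1 and 51.9 against 109, 114 and 115 FPKM. Both were present before heat and higher in every recovered library. The 4 epithelial markers found summed to 379 to 556 FPKM in control and 278 to 290 in HS0.5-R36. Most of that sum was 1 keratin gene, and of the 4 genes 3 fell and 1 rose. Markers of other testis cells were low. The germ cell markers found summed to at most 1.27 FPKM, with DDX4 at 2 reads in the controls and 7 in HS0.5-R36. Endothelial markers summed to at most 0.979 FPKM, with VWF at no reads in either group. Peritubular markers went from 6.89 to 9.85 FPKM in the control libraries to 1.88 to 2.43 in HS0.5-R36, most of it DES, while MYH11 had no reads in the controls. Leydig cell markers summed to 2.46 to 3.30 FPKM against 3.59 to 4.95, and of the 2 tested 1 rose and 0 fell. The 1 that rose, from a mean of 0.121 to 1.95 FPKM, passed the filter through HS0.5-R36 alone and so had to differ. The other was at a mean of 2.65 FPKM in control and 2.22 in HS0.5-R36. Leukocyte markers, mainly CD14 and CD68, summed to 6.35 to 8.56 against 9.76 to 10.4. In bulk RNA, fewer cells of a type and less RNA per cell cannot be told apart, and the part of a changed cell mixture in the results was not tested.

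Each library held 18110565 to 21034021 recovered reads. Control replicate 2 stood apart from the other controls: its log2 levels correlated at 0.974 and 0.971 with theirs, against 0.995 between replicates 1 and 3. In that library the shortest decile of genes by length lay a median of 0.41 above the mean of the other controls on the log2 scale. The longest decile lay 0.28 below. HS0.5-R36 replicate 1 stood apart to a lesser degree, at 0.9853 with both others against 0.9945 between them, with 6.70% of its reads from mitochondrial genes against 4.46% and 4.74%. The deposited FPKM imply library sizes of 0.906 to 0.973 times the recovered reads in control and 1.17 to 1.19 times in HS0.5-R36, a scaling between the groups that the sources used here do not describe. When each library was instead rescaled to the same sum, as TPM, the median difference of all tested genes moved from -0.06 to 0.24. List medians below are set against -0.06, and signs that turn under TPM are named.

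The change was broad. In all 7222 genes, 63.7% of those tested, passed the threshold, 3273 of them up (28.9%) and 3949 down (34.8%). Of the 3273 genes that rose, 486 were among those that entered the filter through HS0.5-R36 alone, and 100 of the 3949 that fell entered through control alone. The share of rises among the calls was 45.3% as deposited and 68.8% after rescaling to TPM, so which direction was the more frequent depends on the scaling. At least 2-fold differences on the log2(FPKM + 1) scale were found for 699 genes up (6.16%) and 1008 down (8.89%), and 4-fold differences for 43 up and 84 down. The 3 recovered libraries lay wholly above the 3 controls for 30.7% of genes and wholly below for 36.5%. The leading rises and falls were taken only from such genes, and most list members were named for the size of their change. A lack of overlap in a gene named below thus follows largely from how the gene was picked. Without control replicate 2 the counts were 3558 up and 4271 down, and without HS0.5-R36 replicate 1 they were 2998 up and 3601 down. At the end of the heat 250 genes were up on control (2.2%) and 150 down (1.32%). Of the 3273 genes up at 36 h, 113 had been up and 52 down at that time, and of the 3949 genes down at 36 h, 56 had been up and 61 down. Both comparisons use the same control libraries.

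The direction went with the level of the gene. In the lowest decile of tested genes by mean level, 0.571 to 1.71 FPKM, 55.6% rose and 10.4% fell, with a median of 0.40. In the middle, at 6.07 to 8.29 FPKM, 33.6% rose and 30.8% fell. Among the highest decile, from 42.6 FPKM upward, 8.72% rose and 61.9% fell, with a median of -0.53. A list's counts are given beside the share of its decile, the one that holds the list's median level, where these lie close together. After rescaling to TPM the medians of the lowest and the highest decile were 0.60 and -0.18.

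**Figure D1:**
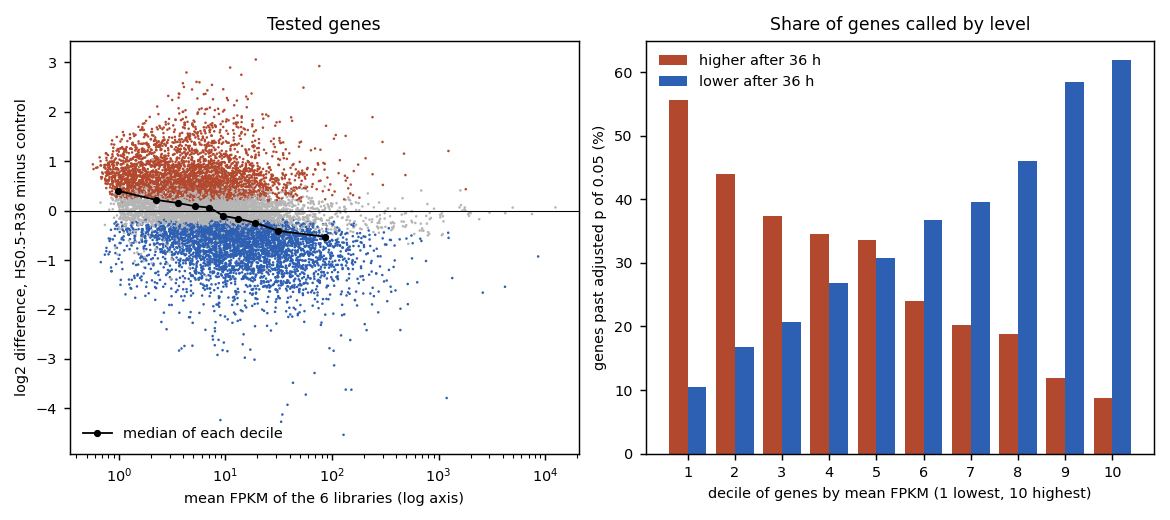
Left, log2 difference of each tested gene against its mean FPKM over the 6 libraries on a log axis, with genes past the threshold in red (higher after 36 h) and blue (lower), others in grey, and the median of each decile of genes in black. Right, the percentage of genes called in each direction in each decile: rises go from 55.6% in the lowest decile to 8.72% in the highest, and falls from 10.4% to 61.9%. After rescaling to TPM the medians lie higher, at 0.60 and -0.18 in the outer deciles.

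Most genes of DNA replication fell, from the proteins that mark origins to those that copy the strand. Of 26 tested genes of origin licensing, 0 rose and 22 fell, 14 of them at least 2-fold, with a median of -1.08. ORC1, the largest subunit of the complex that binds origins, was at 28.1, 30.03 and 26.2 FPKM in control and 9.32, 7.49 and 7.496 in HS0.5-R36 (-1.68 ± 0.10, limma adjusted p = 1.3e-06). The helicase subunit MCM7, the most abundant gene of the list, was at 122, 150.0 and 117 against 47.9, 47.5 and 52.4 FPKM (-1.37 ± 0.10). Both genes showed no overlap between the groups. Of the 24 polymerases, clamps and loaders, 22 fell and 1 rose, with a median of -0.84. PCNA, the sliding clamp, led the falls with 48.03, 59.6 and 47.99 against 18.6, 17.7 and 19.2 FPKM (-1.43). The exception was POLD4, the smallest subunit of polymerase delta, which rose from a mean of 21.5 to 33.5 FPKM (0.64) and was chosen after its values were seen. Of 24 genes of nucleotide synthesis 23 fell and 0 rose (-0.86), and of 15 genes of replicative chromatin 14 fell and 0 rose (-1.17). For recombination repair the counts were 17 down and 0 up of 21 (-0.69).

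Genes that drive the cycle fell with them. Among cyclins, their kinases and the CDC25 phosphatases, 14 of 17 fell and 0 rose, with a median of -0.91. CKS2, a small partner of the cyclin-dependent kinases, was at 97.96, 140.2 and 87.9 FPKM against 31.6, 36.6 and 40.9 (-1.53 ± 0.17, limma adjusted p = 4.2e-05). CCND1, the cyclin that growth signals raise in G1, was at 61.5, 67.6 and 60.3 against 26.96, 28.7 and 28.5 FPKM (-1.14), with no overlap. Of 45 genes of mitosis and cytokinesis 43 fell and 0 rose (-0.98). MYBL2, the transcription factor of G2 genes and the most shifted of that list, was at 117, 149 and 121 against 36.4, 35.9 and 36.5 FPKM (-1.79 ± 0.10).

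The inhibitors of the cycle did not move as a block. Of 20 inhibitors, pocket proteins and related arrest factors 9 rose and 6 fell, with a median of 0.12, which ran from 0.03 to 0.25 as single libraries were left out. After rescaling to TPM the counts were 12 up and 4 down, with a median of 0.46. CDKN1C, the p57 inhibitor that holds many fetal cells out of division, was at 0.111, 0.0676 and 0.0725 FPKM in control and 2.55, 2.18 and 1.71 in HS0.5-R36 (1.53 ± 0.11, limma adjusted p = 3.8e-06). RBL2, the p130 pocket protein that occupies cell cycle promoters in resting cells, was at 3.09, 1.84 and 3.397 against 10.7, 9.09 and 8.77 FPKM (1.50 ± 0.16), and CCNG2, a cyclin that slows the cycle, at 0.762, 0.728 and 0.701 against 4.39, 4.66 and 4.59 (1.68 ± 0.07). FOXO4, which growth factor signalling keeps out of the nucleus, was at 1.14, 0.887 and 0.938 against 4.14, 4.21 and 4.78 FPKM (1.44 ± 0.08). KLF9, a hormone-regulated zinc finger factor, was at 0.538, 0.2702 and 0.908 against 3.91, 3.96 and 4.06 FPKM (1.68 ± 0.13). These 5 genes were weakly expressed before heat. CDKN1C, CCNG2 and KLF9 are the 3 members of the list that passed the filter through HS0.5-R36 alone, so that their groups had to differ, and RBL2 and FOXO4 did not overlap between the groups. The p21 inhibitor CDKN1A was the most abundant of the list, at 173, 206 and 184 against 183, 203 and 209.8 FPKM, and did not pass (0.08, limma adjusted p = 0.46). It was called up under TPM (0.43), after quantile normalization (0.70), with the length trend removed (0.23) and with library weights (0.21).

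Genes for the building of ribosomes fell almost without exception. Of 77 nucleolar genes for the making of ribosomes 74 fell, 48 of them at least 2-fold, and 0 rose, with a median of -1.15. NCL, or nucleolin, an RNA-binding protein of the nucleolus, was at 659, 788 and 659 FPKM in control and 168, 179.6 and 180.1 in HS0.5-R36 (-1.99 ± 0.10, limma adjusted p = 6.3e-07). LYAR, a nucleolar zinc finger protein, was at 21.2, 27.3 and 21.5 against 4.24, 4.55 and 3.91 FPKM (-2.21 ± 0.10). DKC1, the enzyme that turns uridine into pseudouridine in ribosomal RNA, was at 68.9, 96.5 and 69.9 against 16.4, 17.5 and 17.5 (-2.12 ± 0.13), and NOP56, a core protein of the particles that methylate it, at 187, 260.4 and 190.2 against 47.0, 48.4 and 49.5 (-2.10 ± 0.12). None of the 4 overlapped between the groups. RRP9, a protein of the U3 particle that cuts the ribosomal precursor, fell by 2.15 on the log2 scale. MYC, a transcription factor known to raise such genes, was at 116, 126 and 118 against 31.0, 28.8 and 29.6 FPKM (-1.97 ± 0.09). The 5_8S_rRNA gene with a symbol in the table and the other 5 annotated rRNA loci tested also fell, with a median of -2.00 (-1.65 once the trend with gene length was taken out of each library). Such loci are repeated and short, and the sources used here do not say how reads were shared between copies.

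Small nucleolar RNAs, which guide the chemical marks on ribosomal RNA, fell in 95 of 156 cases and rose in 2, with a median of -1.05. They lie mostly in introns of other genes, whose reads cannot be told apart from theirs without strand or splice information, and they are among the shortest genes. With the length trend removed their median was -0.40. SNORA62 was at 35.9, 47.9 and 53.7 FPKM in control, 6.496, 11.14 and 12.7 at the end of the heat and 9.35, 6.95 and 6.72 at 36 h (-2.43 ± 0.23).

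Most genes for the proteins of the ribosome itself did not pass the test. Of 57 cytosolic ribosomal protein genes 7 fell and 0 rose, with a median of -0.29. After rescaling to TPM 5 rose and 1 fell, with a median of 0.05. They are short, and short genes were high in control replicate 2. Without that library 5 fell and 5 rose, with a median of -0.06, and without HS0.5-R36 replicate 1 only 2 fell. Translation factors had 30 down and 3 up of 43 (-0.58), near the 61.9% of all genes that fell in the highest decile, which holds their median level. EIF4A1, the helicase that opens messenger RNA for the ribosome, was at 399, 616 and 417 against 169, 176 and 181 FPKM (-1.41 ± 0.15, limma adjusted p = 4e-05), whereas the elongation factor EEF2 did not pass, at 1134, 1199 and 1087 against 960.5, 1113 and 1092 FPKM (-0.11, limma adjusted p = 0.37). Of the 22 aminoacyl-tRNA synthetases and partners, which load amino acids onto tRNA, 20 fell and 2 rose (-0.93). VARS1, which loads valine, was at 112, 121 and 105 against 43.2, 49.3 and 49.2 FPKM (-1.24).

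Most genes of the nuclear pore and of the splicing machinery fell. Of 42 genes of pores, importins and the Ran cycle 37 fell and 0 rose (-0.81). RANBP1, which helps Ran to let go of its cargo, was at 138, 219 and 146 FPKM against 35.5, 38.7 and 39.7 (-2.08 ± 0.16, limma adjusted p = 5.1e-06), and the importin KPNA2 at 79.4, 88.5 and 73.6 against 20.4, 19.9 and 21.6 (-1.91 ± 0.08). Of 56 hnRNP and core spliceosome genes 50 fell and 1 rose (-0.71). HNRNPA1, the most abundant, was at 502, 617 and 519.8 against 169.9, 175 and 176 FPKM (-1.64). The SR proteins and CLK kinases, which choose splice sites, were mixed, with 11 down and 7 up of 29. Of all genes in the decile of that level 39.65% fell and 20.2% rose. The list median was -0.09 and ran from -0.19 to -0.02 as single libraries were left out. After rescaling it was 0.25, with 12 up and 7 down. RSRP1, a splicing protein rich in arginine and serine, was among the 30 leading rises, at 3.88, 2.58 and 3.21 FPKM in control, 15.8, 14.1 and 15.3 at the end of the heat and 16.3, 15.2 and 15.9 at 36 h (2.01 ± 0.11).

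**Figure D2:**
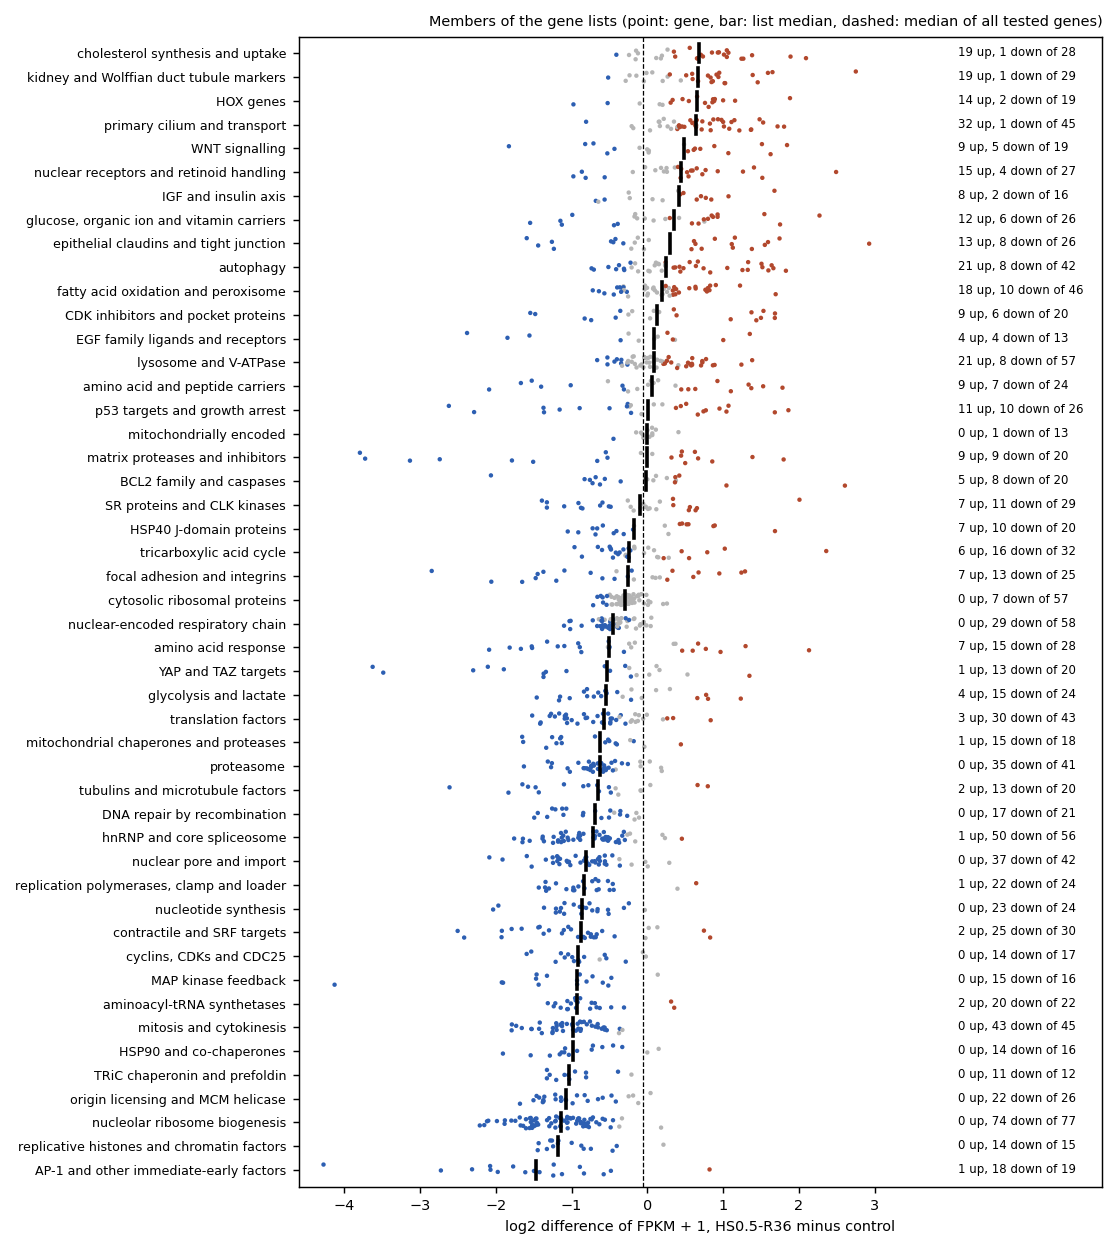
Each point is a tested member of a gene list, placed by its log2 difference of FPKM + 1, in red or blue where it passed the threshold and in grey where not. Black bars are list medians, the dashed line is the median of all tested genes at -0.06, and the counts at the right are of members called up and down. Immediate-early, replicative chromatin and nucleolar genes lie lowest, and cholesterol, kidney tubule, HOX and cilium genes highest. After rescaling to TPM the medians of the ribosomal protein, tricarboxylic acid cycle, J-domain, SR protein, integrin, BCL2 family and matrix protease lists change sign.

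Of the chaperones that were high at the end of the heat, those described here lay below that level by 36 h. HSP70.2, the inducible HSP70, was at 12.1, 15.3 and 11.3 FPKM in control, 249, 182 and 319 at the end of the heat and 17.9, 21.8 and 23.3 at 36 h. It was still above control at 36 h by 0.66 ± 0.20 (limma adjusted p = 0.015), a call that was lost without HS0.5-R36 replicate 3 (limma adjusted p = 0.054). Near-identical copies of this gene exist, and reads may be shared among them. DNAJB1, its HSP40 partner, was at 25.7, 31.8 and 25.4, then 181, 145 and 219, then 22.3, 25.7 and 24.7 FPKM, and did not differ from control at 36 h by the test (-0.18, limma adjusted p = 0.33). HSPH1, an HSP110 that reloads HSP70, went the other way past control, at 45.9, 41.7 and 41.8, 86.7, 78.9 and 129 and 24.3, 21.4 and 21.03 FPKM (-0.93 ± 0.16 at 36 h).

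Most genes of the HSP90 system and of the folding of actin and tubulin fell at 36 h. Of 16 HSP90 genes and co-chaperones 14 fell and 0 rose (-0.98), and of 12 subunits of the TRiC chaperonin and prefoldin 11 fell and 0 rose (-1.04). FKBP4, a co-chaperone for steroid receptors, was at 179.8, 245 and 168 FPKM in control, 181, 171 and 175 at the end of the heat and 45.5, 55.4 and 53.4 at 36 h (-1.91 ± 0.14, limma adjusted p = 4.5e-06). HSPB1, the small heat shock protein that guards actin filaments, was at 319, 551 and 268, 319.8, 312 and 332 and 87.4, 101 and 101 FPKM (-1.90 ± 0.22). Neither gene overlapped between control and 36 h. HSF1, the factor that turns on the heat shock genes, was at 26.02, 34.4 and 26.0 against 14.4, 17.2 and 17.6 FPKM (-0.77). Mitochondrial chaperones and proteases had 15 down and 1 up of 18 (-0.62) and the proteasome 35 down and 0 up of 41 (-0.63). Among 20 J-domain genes 10 fell and 7 rose, with a median of -0.18. Of all genes in the decile of that level 30.8% fell and 33.6% rose. After rescaling the list had 9 up and 6 down (0.14). DNAJC12, a cytosolic partner of the aromatic amino acid hydroxylases, led the rises at 2.42, 4.09 and 2.86 against 12.4, 10.9 and 12.9 FPKM (1.68 ± 0.15).

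**Figure D3:**
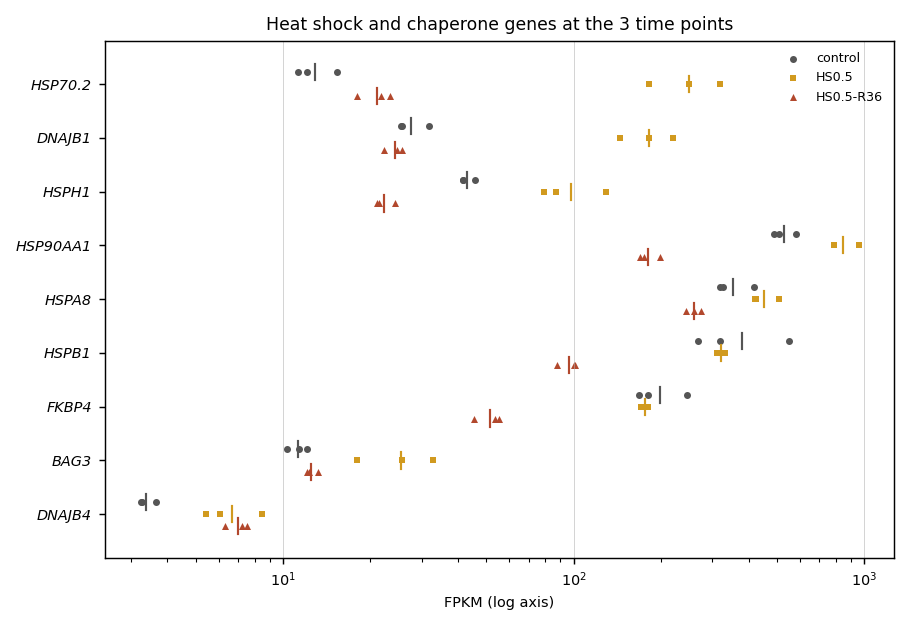
FPKM on a log axis in each of the 3 libraries of control (circles), HS0.5 at the end of the heat (squares) and HS0.5-R36 (triangles), with vertical bars at the group means. HSP70.2 and DNAJB1 rise far above control in HS0.5, and BAG3 goes from a mean of 11.25 to 25.5 FPKM. At 36 h DNAJB1 and BAG3 lie close to control. HSP70.2 then lies above control without overlap, at a mean of 20.99 against 12.91 FPKM. HSPB1, FKBP4 and HSP90AA1 lie below control at 36 h.

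The EGF family ligands AREG and HBEGF were lower and the receptor ERBB2 was higher. Of 13 EGF family ligands, receptors and partners 4 fell and 4 rose, with 7 up and 3 down under TPM. Of all genes in the decile of that level 36.8% fell and 24.1% rose. The ligand AREG was at 12.2, 16.9 and 12.98 FPKM in control and 1.95, 1.51 and 2.18 in HS0.5-R36 (-2.38 ± 0.13, limma adjusted p = 8.4e-07), and the ligand HBEGF at 45.96, 52.2 and 42.8 against 12.1, 12.5 and 12.2 (-1.85 ± 0.09). Among the receptors ERBB2 rose, at 4.91, 4.99 and 4.43 against 13.0, 14.5 and 13.7 FPKM (1.35 ± 0.08), and the abundant ERBB3 did not pass (0.14, limma adjusted p = 0.58). ERBB3 was called up without control replicate 2 (0.41), under TPM (0.48), after quantile normalization (0.74) and with library weights (0.35). AREG and HBEGF lay below every control and ERBB2 above.

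Feedback genes that MAP kinase signalling switches on had 15 down and 0 up of 16 (-0.93). PHLDA1 was at 71.8, 57.1 and 68.2 FPKM against 2.404, 2.98 and 3.06 (-4.13 ± 0.12). DUSP5, a phosphatase that switches ERK off in the nucleus, was at 57.4, 54.1 and 55.9 in control, 94.8, 93.5 and 92.1 at the end of the heat and 19.6, 19.1 and 20.1 at 36 h. It had thus risen by 0 h (0.73, limma adjusted p = 0.00098) and was below control at 36 h (-1.46). Of 19 immediate-early factors, which serum and stress induce within minutes, 18 fell and 1 rose, with a median of -1.48. FOSL1, an AP-1 subunit, was at 59.2, 73.4 and 60.3 against 2.62, 2.43 and 2.08 FPKM (-4.27 ± 0.10, limma adjusted p = 2.4e-08), and MAFF, a small MAF factor, at 13.5, 17.1 and 13.1 against 1.16, 1.44 and 1.44 (-2.72 ± 0.11). Both lay far below the lowest control in each recovered library. NR4A2, an orphan nuclear receptor, was the 1 member that rose, from a mean of 1.69 to 3.74 FPKM (0.82).

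More genes of the IGF and insulin axis rose than fell. Of 16 tested 8 rose and 2 fell (0.42). SESN3, a sestrin that restrains growth signalling through mTORC1 and that FOXO factors are known to induce, was at 0.784, 0.525 and 0.639 FPKM in control and 4.43, 4.04 and 4.30 in HS0.5-R36 (1.68 ± 0.09, limma adjusted p = 6.5e-07), and the insulin receptor INSR at 1.198, 0.549 and 1.198 against 2.56, 2.63 and 2.33 (0.84 ± 0.13). PIK3R3, a regulatory subunit of PI 3-kinase, was one of the leading rises, at 3.33, 2.15 and 3.82 against 17.8, 18.05 and 18.1 FPKM (2.24 ± 0.14). SESN3 passed the filter through HS0.5-R36 alone and so had to differ. In INSR and PIK3R3 no control library reached the lowest recovered one.

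Several genes of the plasminogen system, by which cells dissolve clots and matrix around them, were lower. No count was made for this system, and PLAT was chosen after its values were seen. The activator PLAU, or urokinase, was at 179.9, 208 and 179 FPKM in control and 19.7, 21.2 and 21.04 in HS0.5-R36 (-3.13 ± 0.08, limma adjusted p = 3.5e-08) and its receptor PLAUR at 94.2, 128 and 97.9 against 7.102, 6.64 and 7.49 (-3.72 ± 0.11). The second activator PLAT was at 73.4, 82.9 and 74.8 against 23.7, 28.2 and 27.6 FPKM (-1.51), and the inhibitor SERPINE2 at 7.595, 8.46 and 7.71 against 0.305, 0.4702 and 0.2396 (-2.74). F3, the tissue factor that starts clotting, was at 268, 313 and 266 against 20.3, 22.9 and 22.6 FPKM (-3.62 ± 0.09). SERPINE2 passed the filter through control alone and so had to differ, and the other 4 genes did not overlap between the groups. In the whole list of 20 matrix proteases and inhibitors 9 fell and 9 rose (-0.01). Of all genes in the decile of that level 46.0% fell and 18.8% rose. After rescaling the list had 11 up and 6 down (0.31). The rises were led by TIMP4, an inhibitor of metalloproteinases, at 1.55, 1.17 and 1.55 against 7.99, 6.95 and 7.25 FPKM (1.80 ± 0.11), and by ADAMTS9, a protease of proteoglycans, at 2.198, 0.929 and 1.95 against 6.07, 5.92 and 5.63 (1.39 ± 0.17).

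Genes of the actin cytoskeleton were lower. Of 30 contractile genes and targets of serum response factor 25 fell and 2 rose (-0.88). TAGLN, an actin-bundling protein of contractile cells, was at 627, 963 and 632 FPKM against 114, 139.6 and 155 (-2.42 ± 0.18, limma adjusted p = 4.5e-06), and SMTN, or smoothelin, at 25.2, 27.6 and 24.96 against 3.74, 3.79 and 3.70 (-2.50 ± 0.07). The smooth muscle genes ACTA2 and MYH11 were near 0 in both groups. ACTG1, cytoplasmic gamma actin, was at 5709, 7429 and 5665 against 2138, 2092 and 2179 FPKM (-1.54 ± 0.15), and its share of reads went from 1.22% to 0.522%. ACTB, often used as a constant reference, was at 989, 1135 and 945 against 476, 523 and 509.7 FPKM (-1.02 ± 0.10), and GAPDH, the other common reference, was at 0.462, 0.311 and 0.212 against 0.422, 0.117 and 0.172 FPKM under that symbol and was not tested.

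Most tubulins were lower too. Of 20 tubulins and microtubule factors 13 fell and 2 rose (-0.65). TUBB6, a beta tubulin, was at 14.1, 15.5 and 12.05 against 1.37, 1.49 and 1.42 FPKM (-2.61 ± 0.09), and TUBB at 496, 578 and 476 against 146, 141 and 144 (-1.83 ± 0.09). The abundant tubulins are near copies of each other, so reads may be shared among them. MAP7, a partner of kinesin along epithelial microtubules, rose from a mean of 7.17 to 13.1 FPKM (0.80). Targets of YAP and TAZ, the factors that read tension and cell density, had 13 down and 1 up of 20 (-0.53), with 3 up and 9 down under TPM. At that level 58.4% of all genes fell. CCN2, or CTGF, was at 74.4, 90.2 and 75.04 against 5.03, 7.07 and 6.66 FPKM (-3.48 ± 0.12), and ANKRD1 at 304, 396 and 315 against 71.5, 64.3 and 67.02 (-2.30 ± 0.11). The gene for TAZ itself, WWTR1, was the 1 member that rose, at 6.78, 5.504 and 7.42 against 19.6, 17.8 and 16.97 FPKM (1.34 ± 0.10).

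Integrins, the receptors for the matrix, changed in both directions. Of 25 genes of integrins and focal adhesions 13 fell and 7 rose, where 46.0% of all genes of that level fell. Their median of -0.26 was -0.17 without control replicate 1. After rescaling 9 rose and 9 fell, with a median of 0.01. ITGA8, the receptor chain for nephronectin, was at 20.8, 15.04 and 21.6 FPKM in control and 1.87, 1.84 and 1.61 in HS0.5-R36 (-2.84 ± 0.12, limma adjusted p = 3.2e-07). ITGA3, a laminin receptor chain, was at 449, 428 and 439.9 against 101, 106 and 106 (-2.06 ± 0.08), and ITGA5, the fibronectin receptor chain, at 76.04, 77.5 and 72.7 against 22.5, 23.8 and 23.6 (-1.65 ± 0.07). ITGA1, a collagen receptor chain, rose and was at 23.5, 7.17 and 22.97 against 44.97, 39.9 and 36.1 FPKM (1.29 ± 0.35), or 0.76 on the log2 scale without control replicate 2. The 4 chains did not overlap between groups. GJA1, connexin 43, the main gap junction protein of Sertoli cells, was at 17.1, 15.2 and 18.2 against 3.53, 2.76 and 2.82 FPKM (-2.14 ± 0.11). VIM, the intermediate filament of mesenchymal and Sertoli cells, was at 3649.8, 4654 and 3569 against 1158, 1285 and 1288 (-1.66 ± 0.14), and KRT18, a keratin of simple epithelia and immature Sertoli cells, at 93.6, 155 and 91.8 against 49.6, 50.9 and 52.6 (-1.09 ± 0.17).

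**Figure D4:**
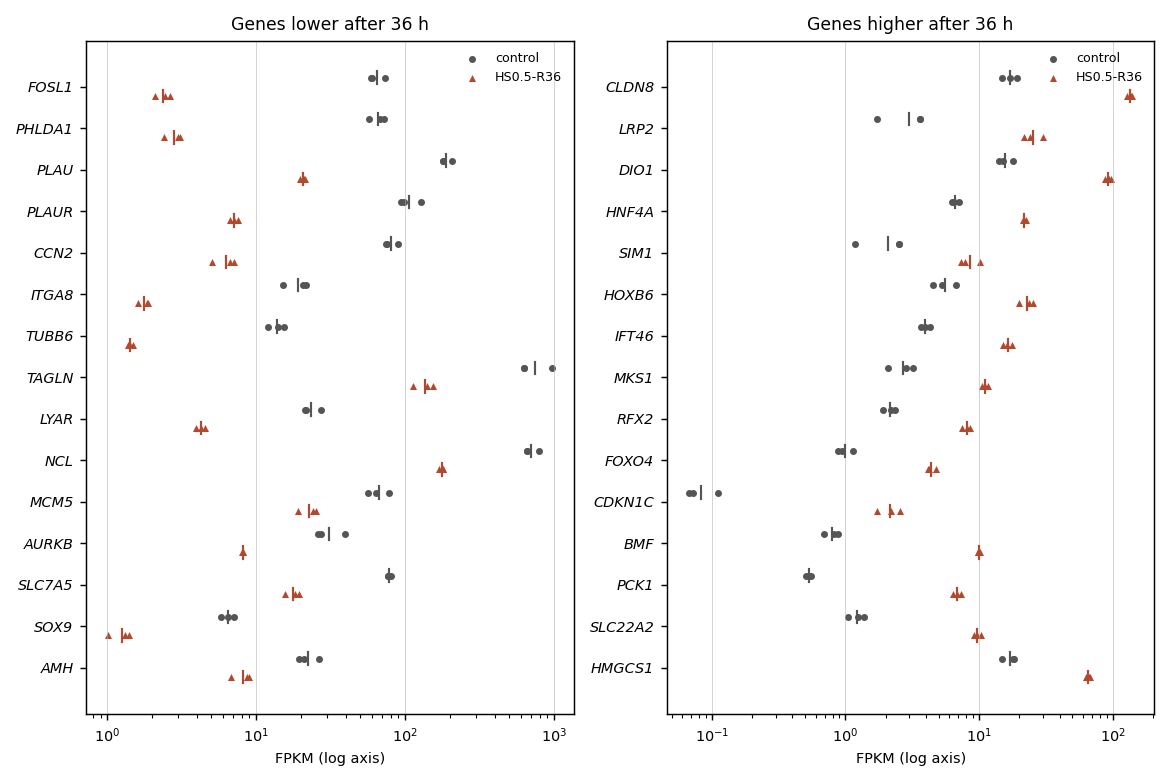
FPKM on a log axis in each of the 3 control (circles) and 3 HS0.5-R36 libraries (triangles), with vertical bars at the group means, for genes that fell (left) and rose (right). For the genes drawn the 2 groups do not overlap, which for CDKN1C, BMF and PCK1 the filter fixed. The leading rises and falls were taken only from genes without overlap. Of all tested genes 30.7% lay wholly above the controls and 36.5% wholly below. PLAUR goes from 107 to 7.08 FPKM and CLDN8 from 17.0 to 135 FPKM on average.

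Tight junction genes changed in both directions. Of 26 genes of claudins and junction polarity 13 rose and 8 fell (0.30), with 14 up and 4 down under TPM. CLDN8, a claudin that blocks cations in tight epithelia, had the largest rise of all genes with a symbol and at least 10 FPKM. It was at 19.3, 14.7 and 17.02 FPKM in control and 140.1, 129 and 136 in HS0.5-R36 (2.92 ± 0.10, limma adjusted p = 1.2e-07), and lies on chromosome 13, 193562074 to 193564168 (positions as in the deposited table). CLDN3 was at 0, 0 and 0.134 against 2.06, 2.07 and 2.29 FPKM (1.59 ± 0.09), and CLDN2, which forms a cation pore in proximal tubules, at 0.347, 0.347 and 0.528 against 3.21, 3.04 and 3.08 (1.55 ± 0.08). Both passed the filter through HS0.5-R36 alone and so had to differ. The scaffold TJP3 was at 2.82, 3.06 and 2.51 against 11.9, 12.1 and 11.07 FPKM (1.74 ± 0.09). On the other side CLDN6, a claudin of embryonic epithelia, was at 5.34, 8.82 and 5.502 against 1.08, 1.92 and 1.43 FPKM (-1.59 ± 0.19), and CLDN1, the most abundant claudin, at 344, 309.7 and 340.2 against 145, 137 and 139 (-1.23). CLDN8, TJP3, CLDN6 and CLDN1 did not overlap between groups.

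Genes of the kidney tubule and Wolffian duct, most of them already present before heat, mostly rose. Of 29 tested members of the longer marker list 19 rose and 1 fell (0.67), with a median level of 5.28 FPKM. In all 6 libraries 24 of the 29 reached 1 FPKM. Through HS0.5-R36 alone 3 members passed the filter, so those had to differ. Transcription factors of the proximal tubule were among the genes that rose. HNF4A was at 7.02, 6.51 and 6.28 FPKM in control and 22.6, 21.2 and 21.7 in HS0.5-R36 (1.59 ± 0.08, limma adjusted p = 4.7e-07). SIM1 was at 2.54, 1.18 and 2.496 against 10.2, 7.88 and 7.37 FPKM (1.65 ± 0.19). LRP2, or megalin, the receptor that takes up filtered protein in tubules, was at 3.61, 1.72 and 3.64 against 30.04, 23.9 and 21.9 FPKM (2.75 ± 0.20). SLC34A1, the sodium phosphate carrier, was at 54.6, 58.1 and 53.5 against 153, 155 and 152 (1.45 ± 0.07). The groups did not overlap in any of the 4. PDZK1, the scaffold that holds such carriers at the brush border, and DAB2, the adaptor that takes megalin inward, were among the leading rises at 3.36, 3.16 and 3.11 against 18.8, 14.9 and 15.3 FPKM (2.04 ± 0.10) and 5.15, 3.67 and 5.74 against 23.4, 19.99 and 19.7 FPKM (1.92 ± 0.13). WFDC2, the most abundant marker of the list at a mean of 1749 and 1776 FPKM, did not pass (0.06, limma adjusted p = 0.8). It was called up without control replicate 2 (0.32), under TPM (0.41) and with library weights (0.36). EMX2, also of this list, was at 40.4, 37.4 and 45.9 against 41.7, 39.6 and 40.9 FPKM (-0.01, limma adjusted p = 0.92), and was called up after quantile normalization (0.44).

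Carriers of small molecules moved in both directions. Of 26 carriers of sugars, organic ions and vitamins 12 rose and 6 fell, with 14 up and 4 down under TPM. Their median of 0.36 was 0.18 without control replicate 2. In the decile of the list's median level, 6.69 FPKM, 33.6% of all genes rose and 30.8% fell. Of the 26 members 2 passed the filter through HS0.5-R36 alone and 1 through control alone, so those had to differ. SLC22A2, the organic cation carrier of the renal proximal tubule, was at 1.25, 1.37 and 1.04 FPKM against 10.3, 9.73 and 9.11 (2.27 ± 0.09, limma adjusted p = 2e-07), and SLC19A3, a thiamine carrier, at 3.57, 3.76 and 3.45 against 15.7, 13.8 and 13.95 (1.75 ± 0.08). SLCO4A1, an organic anion carrier, fell and was at 3.72, 3.43 and 4.103 against 0.639, 0.654 and 0.579 (-1.55 ± 0.09). Of 24 amino acid carriers 9 rose and 7 fell (0.06), with 13 up and 5 down under TPM. In the decile of that list's median level, 9.27 FPKM, 24.1% of all genes rose and 36.8% fell. Through HS0.5-R36 alone 3 of the 24 passed the filter. The paired chains that import leucine fell together: SLC7A5 was at 79.9, 77.3 and 77.1 against 15.6, 19.3 and 18.1 FPKM (-2.09 ± 0.10) and SLC3A2 at 93.5, 129 and 91.5 against 29.1, 33.8 and 32.8 (-1.67 ± 0.13). The taurine carrier SLC6A6 rose, at 5.96, 4.203 and 5.999 against 20.5, 21.3 and 20.4 (1.78 ± 0.11), and so did SLC7A7, the light chain that exports basic amino acids, at 0.827, 0.443 and 0.476 against 3.42, 3.65 and 3.52 (1.53 ± 0.12). SLC7A7 passed the filter through HS0.5-R36 alone and SLCO4A1 through control alone, so both had to differ.

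The amino acid response, a set of genes under ATF4, was split. Of 28 members 15 fell and 7 rose (-0.50), with 9 up and 11 down under TPM, and in the decile of its level 46.0% of all genes fell. PYCR1, an enzyme of proline synthesis, was at 65.9, 93.4 and 62.1 FPKM against 16.8, 22.3 and 20.9 (-1.82 ± 0.16). NUPR1, a small chromatin protein induced by stress, was at 3.92, 4.96 and 2.85 in control, 2.75, 2.45 and 1.31 at the end of the heat and 17.9, 19.9 and 23.1 at 36 h (2.13 ± 0.21, limma adjusted p = 2.2e-05). It had not changed by the test at the end of the heat (-0.64, limma adjusted p = 0.1). DDIT4, known as a brake on mTORC1, was at 29.05, 29.2 and 25.5, 46.6, 41.6 and 43.3 and 60.6, 73.7 and 76.0 FPKM, up at both times (0.63 and 1.29).

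Nuclear receptors and the handling of their ligands rose in 15 of 27 genes and fell in 4 (0.44). DIO1, the deiodinase that activates thyroid hormone, was at 15.03, 17.8 and 14.2 FPKM in control and 96.8, 87.04 and 93.2 in HS0.5-R36 (2.49 ± 0.09, limma adjusted p = 1.6e-07). NR1H4, the bile acid receptor FXR, was at 0.921, 0.879 and 1.05 against 4.89, 3.44 and 4.25 (1.40 ± 0.12), and ESRRG, an orphan receptor of oxidative tissues, at 0.357, 0.163 and 0.509 against 3.03, 1.75 and 1.95 (1.26 ± 0.16). DHRS3, which turns retinal back to retinol, was at 0.737, 0.534 and 0.573 against 3.43, 3.49 and 3.93 FPKM (1.52 ± 0.08), while CYP26B1, the enzyme that degrades retinoic acid in the fetal testis, was at 1.76, 1.59 and 1.59 against 0.216, 0.464 and 0.3604 (-0.98). The recovered libraries were above the controls in DIO1 and NR1H4. ESRRG and DHRS3 entered through HS0.5-R36 alone and CYP26B1 through control alone, so the filter fixed their separation.

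HOX genes, which record position along the body axis, rose in 14 of 19 tested cases and fell in 2, with a median of 0.66 and a median level of 6.98 FPKM. HOXB6 was at 4.54, 6.73 and 5.32 FPKM in control and 19.9, 23.5 and 25.3 in HS0.5-R36 (1.88 ± 0.13, limma adjusted p = 3.2e-06), and HOXA5 at 3.81, 3.88 and 4.13 against 10.2, 10.4 and 9.48 (1.16 ± 0.07). HOXB9 fell, at 9.76, 10.6 and 11.5 against 4.798, 5.07 and 4.84 (-0.98 ± 0.09). The 3 genes did not overlap between groups, and HOXB6 and HOXB9, which share a cluster, lay on opposite sides. IRX5, another homeobox gene, was among the leading rises, at 10.4, 8.14 and 9.72 against 38.8, 39.9 and 37.9 FPKM (1.94 ± 0.10). By the domain families in the deposited table, 19 of 30 homeobox genes tested rose and 2 fell (median 0.47). Of 55 genes with a KRAB domain, a repressor domain of zinc finger proteins, 33 rose and 7 fell (0.35), and of 87 genes with an RNA recognition motif 9 rose and 60 fell (-0.55). The KRAB genes had a median level of 2.18 FPKM, and in the decile of that level 43.9% of all genes rose and 16.75% fell. These 3 families were chosen from 106 after their values were seen.

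Signals of the WNT family had 9 genes up and 5 down of 19, and 10 up and 3 down under TPM. Their median of 0.48 was 0.09 without control replicate 2. In the decile of the list's median level, 7.1 FPKM, 33.6% of all genes rose and 30.8% fell. Of the 19 members 2 passed the filter through HS0.5-R36 alone and so had to differ. WNT6, a ligand of tubule epithelia, was at 0.828, 1.28 and 0.689 FPKM against 5.64, 5.84 and 6.14 (1.84 ± 0.11), the receptor LGR4 at 3.22, 2.21 and 3.57 against 11.98, 10.7 and 10.9 (1.62 ± 0.13) and the receptor FZD1 at 4.87, 3.28 and 4.65 against 11.98, 15.5 and 14.3 (1.51 ± 0.16). The ligand WNT7A fell, at 18.96, 21.3 and 17.2 against 4.26, 4.61 and 5.14 (-1.83 ± 0.09). The direction thus differed between ligands of the family, with no overlap of the groups in any of the 4.

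Most genes of the primary cilium rose. Of 45 tested members 32 rose, 11 of them at least 2-fold, and 1 fell, with a median of 0.64 and a median level of 7.6 FPKM. In the decile of all tested genes at 6.07 to 8.29 FPKM, 33.6% rose. IFT46, a subunit of the train that carries cargo to the ciliary tip, was at 3.71, 4.27 and 3.92 FPKM in control and 17.7, 15.1 and 16.1 in HS0.5-R36 (1.80 ± 0.11, limma adjusted p = 1.5e-06). MKS1 and CC2D2A, parts of the gate at the ciliary base, were at 2.07, 3.22 and 2.84 against 10.6, 11.14 and 11.6 (1.72 ± 0.12) and 2.49, 1.93 and 2.96 against 9.21, 7.39 and 7.07 (1.36 ± 0.13). RFX2, a transcription factor of ciliary genes, was at 2.21, 1.904 and 2.33 against 7.45, 8.57 and 8.16 FPKM (1.53 ± 0.10). PKHD1, fibrocystin, a ciliary protein of kidney tubules and the gene of recessive polycystic kidney disease, was at 2.73, 1.30 and 3.003 against 9.45, 7.99 and 6.92 (1.48 ± 0.19). FOXJ1, the master factor of motile cilia, was the most abundant of the list, at 123, 129 and 110.4 against 199, 245 and 250.2 FPKM (0.93 ± 0.14). Each of the 6 was higher in every recovered library. BBS7, a subunit of the BBSome, was the 1 member that fell, from a mean of 14.5 to 7.88 FPKM (-0.81). Genes known from motile cilia were among the 30 leading rises: CFAP52 was at 1.63, 1.62 and 1.79 against 11.1, 10.9 and 8.84 (2.07 ± 0.09), and VWA3A at 2.84, 2.96 and 2.29 against 14.6, 14.8 and 13.7 (2.06 ± 0.11).

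**Figure D5:**
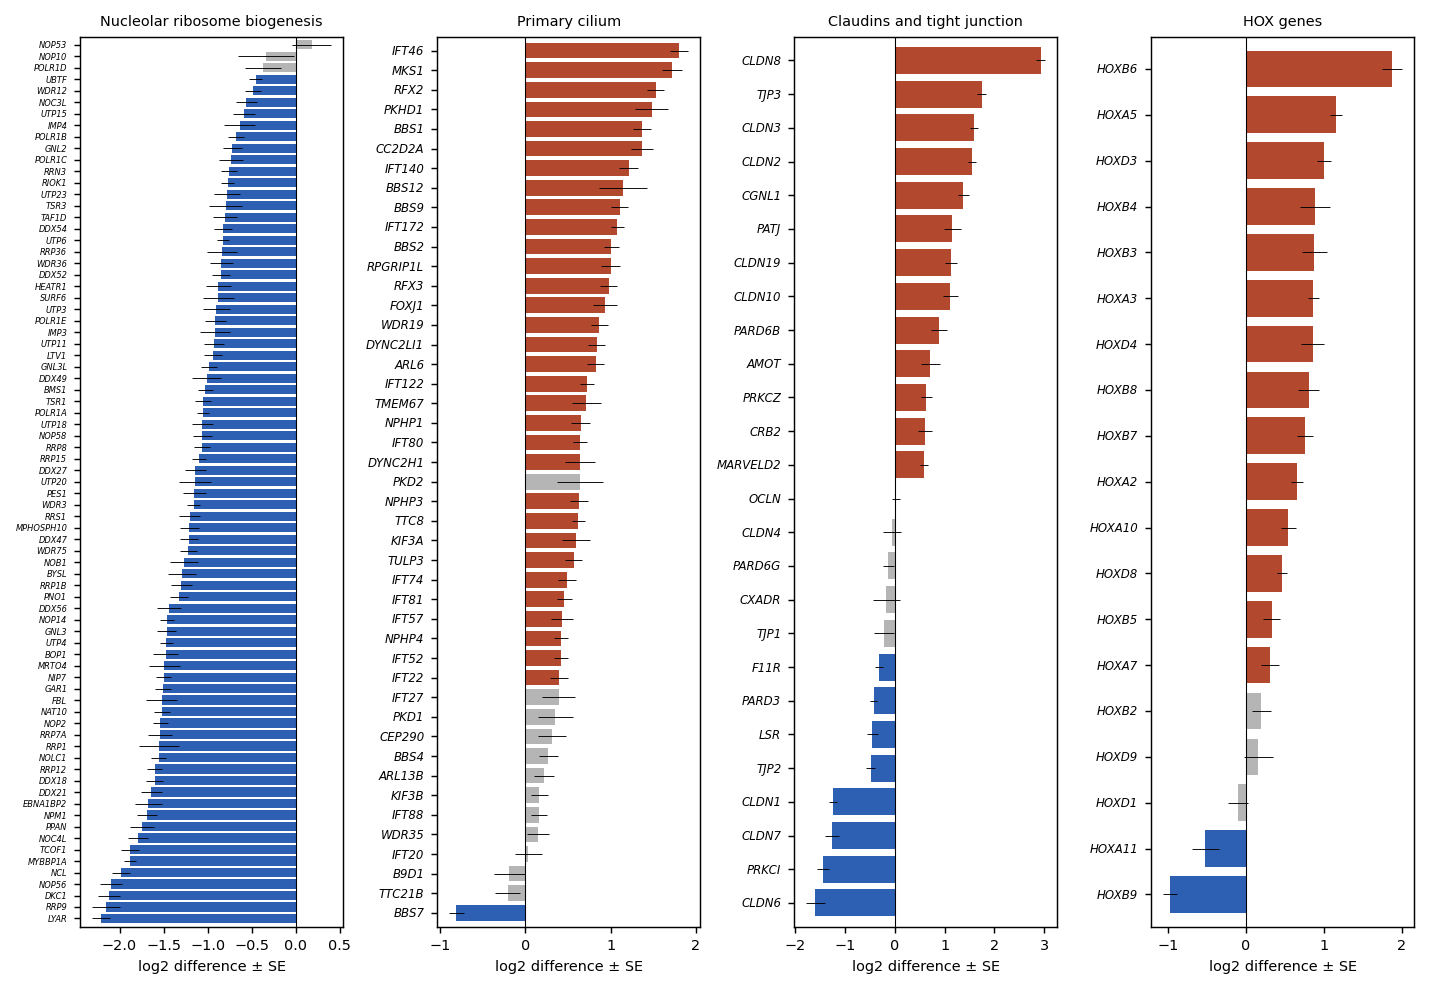
Log2 difference of each tested member with its SE, in red or blue where the limma adjusted p was below 0.05 and in grey where not, for nucleolar ribosome biogenesis, the primary cilium, claudins and tight junctions, and HOX genes. Nucleolar genes lie almost wholly to the left and cilium genes almost wholly to the right, while the junction list has members on both sides. After rescaling to TPM the list medians are -0.82, 0.93, 0.57 and 0.94.

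Genes of autophagy, the digestion of a cell's own parts, and of cholesterol supply rose more often than they fell. Of 42 autophagy genes 21 rose and 8 fell (0.24), with 31 up and 1 down under TPM. ULK1, the kinase that starts autophagy, was at 9.43, 7.26 and 9.69 FPKM against 27.2, 29.7 and 28.4 (1.60 ± 0.11, limma adjusted p = 3.9e-06), the receptor CALCOCO1 at 4.65, 3.87 and 3.97 against 17.4, 17.5 and 16.9 (1.83 ± 0.09) and GABARAPL1, which coats the membrane, at 7.08, 7.11 and 5.704 against 21.7, 22.8 and 24.8 (1.66 ± 0.09). Genes of the lysosome and its proton pump had 21 up and 8 down of 57 (0.08, or 0.16 without control replicate 2), with 40 up and 1 down under TPM. Of 28 genes of cholesterol synthesis and uptake 19 rose and 1 fell (0.68). INSIG1, the sterol sensor's anchor, was at 5.79, 5.09 and 5.35 in control, 16.7, 15.8 and 15.99 at the end of the heat and 23.7, 27.6 and 27.8 at 36 h (2.09 ± 0.08).

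Energy metabolism changed gene by gene. Glycolysis had 15 genes down and 4 up of 24 (-0.54), and the tricarboxylic acid cycle 16 down and 6 up of 32, with a median of -0.25. In the decile of that level 58.4% of all genes fell. After rescaling the cycle had 12 up and 3 down, with a median of 0.09, and glycolysis 6 up and 8 down. PCK1, the committing enzyme of gluconeogenesis, was at 0.553, 0.531 and 0.505 FPKM in control and 6.36, 6.83 and 7.36 in HS0.5-R36 (2.36 ± 0.09, limma adjusted p = 1.8e-07). It passed the filter through HS0.5-R36 alone and so had to differ. Pyruvate carboxylase, PC, rose from a mean of 78.1 to 159 FPKM (1.02). Of 46 genes of fatty acid oxidation and peroxisomes 18 rose and 10 fell (0.19), with 31 up and 2 down under TPM. Their median was 0.12 without control replicate 3. ACOX2, a peroxisomal oxidase of bile acid precursors, was at 3.98, 4.48 and 3.52 against 15.7, 14.2 and 15.3 (1.69 ± 0.09), and PPARA, the receptor that drives such genes, at 1.01, 0.538 and 1.37 against 3.65, 3.67 and 3.28 (1.22 ± 0.16). Nuclear-encoded genes of the respiratory chain had 29 down and 0 up of 58 (-0.46). In the decile of that level 58.4% of all genes fell. The count was 16 down without HS0.5-R36 replicate 1, the median was -0.24 without control replicate 2, and under TPM the counts were 3 up and 6 down (-0.12). Of the 13 mitochondrially encoded genes 1 fell and 0 rose.

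Genes of cell death and arrest went both ways. Of 20 BCL2 family members and caspases 8 fell and 5 rose (-0.01). Of all genes in the decile of that level 39.65% fell and 20.2% rose. After rescaling the list had 10 up and 5 down (0.32). Among the BH3-only activators of death, BMF was at 0.881, 0.696 and 0.8201 FPKM against 9.87, 10.1 and 9.82 (2.60 ± 0.09, limma adjusted p = 1.2e-07) and BBC3, or PUMA, at 4.59, 4.93 and 3.74 against 7.97, 11.2 and 11.6 (1.04 ± 0.15), while PMAIP1, or NOXA, was at 19.2, 20.1 and 20.9 against 4.23, 3.92 and 3.98 (-2.06 ± 0.07). BMF passed the filter through HS0.5-R36 alone and so had to differ. BBC3 was above every control and PMAIP1 below. Of 26 p53 targets and growth arrest genes 11 rose and 10 fell (0.00), at a level of the same decile. Under TPM 13 rose and 6 fell.

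Several secreted products held another share of the reads at 36 h. COL1A2, a chain of type I collagen, held 0.811%, 0.685% and 0.763% of the recovered reads in the controls and 1.19%, 1.32% and 1.30% in HS0.5-R36. Shares of reads leave out the scaling between groups that the deposited FPKM imply. In FPKM COL1A2 was at a mean of 1533.5 against 2068.7 and rose (0.43). Its partner chain COL1A1 was at 2.199, 2.38 and 2.21 against 1.07, 1.404 and 1.39 FPKM and fell (-0.52), so the 2 chains lay on opposite sides. C3, the central complement protein, went from 0.157%, 0.125% and 0.159% of reads to 0.409%, 0.399% and 0.412% (1.15 ± 0.09, limma adjusted p = 7.7e-06). SPP1, or osteopontin, went from 1.61% to 1.05% on average, and THBS1, an adhesive matrix protein, from 1.08% to 0.510%. COX1 of the mitochondrial genome went from 1.70%, 1.78% and 1.84% to 2.96%, 1.98% and 2.13%, with HS0.5-R36 replicate 1 the highest. The FPKM of COX1 overlapped between the groups and did not pass the test (0.06, limma adjusted p = 0.81). None of these 5 shares overlapped between the groups, and the calls of COL1A2 and SPP1 were lost without a filter on low values.

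A few genes were present in 1 group alone. GUCA2B, or uroguanylin, a peptide hormone of gut and kidney, was at 1.82, 3.33 and 1.79 FPKM in control, 60 reads over the 3 libraries, and had no reads in HS0.5-R36, so it was at least 25.5-fold lower, taking 3 reads over the group as the floor. The precursor ssc-mir-221 had 68 reads in control and none in HS0.5-R36, at least 28.9-fold lower by the same floor. Both genes entered the filter through control alone, and both bounds cover counting error only. Among long noncoding RNA genes 118 of 271 rose and 58 fell (median 0.21), in a decile of level where 43.9% of all genes rose. Among loci that the deposited table does not annotate 116 of 226 rose and 31 fell (0.44), at a level of the same decile.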

How the data were processed

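Total RNA isolated with Trizol was sequenced in 9 libraries, 3 in each of 3 groups, and the contrast used 6 of them. Reads were aligned with HISAT2 2.0.5 after base calling with bcl2fastq, per the submitters' processing notes. The counter, the annotation and the genome build are not given in the sources used here. The authors deposited FPKM per gene, per the file headers, with a gene length. Symbols are those of the deposited table (13457 genes), supplemented by reference gene names (689 genes). Of 12809 symbols shared with the reference table for Sscrofa11.1, 12659 (98.8%) lay on genes that overlapped it, so positions are read on that build.

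The product of FPKM and length was a whole multiple of 1 constant per library in 100% of values (tolerance 1e-06), from which reads per gene were recovered, and 1 read in a gene of 1 kb is 0.0413 to 0.0573 FPKM in the 6 libraries. A linear model with a mean for each group was fitted to log2(FPKM + 1) of the 9 libraries in limma 3.58.1 (R 4.3.3), with variances moderated along the mean level. The pseudocount of 1 understates the change of low genes. Two-sided p-values were adjusted over the tested genes (Benjamini-Hochberg). The script was tested on simulated data.

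The contrast, the 78 gene lists and the tests were chosen with earlier results of these data known. A list is described by its counts and median and has no test of its own. The rule for naming genes took the 30 largest rises and falls of non-overlapping genes with a symbol and a mean of at least 10 FPKM, the 5 most changed and the most abundant member of each list, the 15 largest changes of read share in each direction, and preset heat shock and Sertoli genes. Outside it and after their values were seen, ACTA2, ADAMTS9, BAG3, BBS7, CC2D2A, CD14, CD68, COL1A1, DDIT4, FOXO4, ITGA1, MAP7, MYC, MYH11, NR4A2, PLAT, POLD4 and WWTR1 were named, and the remaining marker genes for the check of cell type. Alternatives covered pseudocounts, filters, scalings, the variance model, voom on recovered reads, library weights, a fit of 6 libraries, replicate numbers as a block, the threshold and each library left out.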

Additional observations from a re-analysis of the deposited data

How the results depend on the processing

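Of 145 tested genes named, 135 passed the threshold, and 132 of these passed with the same sign under every one of the 19 alternatives that gave them a value. The exceptions were HSP70.2, lost without HS0.5-R36 replicate 3, and COL1A2 and SPP1, lost without a filter on low values. Rescaling to TPM gave 4958 genes up and 2248 down, 1407 and 481 of them past 2-fold, and moved the median of all genes to 0.237. That median was 0.013 after quantile normalization, -0.005 after median ratio scaling, 0.001 after removal of the length trend and -0.203 with genes of at least 5 FPKM, where 1768 rose, 419 of them past 2-fold. Past 2-fold, voom on recovered reads gave 2592 genes, 1341 of them up, and a pseudocount of 0.1 gave 1265 up. With each library left out in turn, 6455 to 7829 genes were called, 2921 to 3558 up and 3534 to 4271 down, with 1593 to 1860 past 2-fold (688 to 761 up, 905 to 1099 down) and a median of -0.064 to -0.051. At an adjusted p of 0.01, 5707 genes were called. The cause of these shifts was not tested.

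List medians near that of all genes changed sign. Under TPM these were the BCL2 family at 0.316, J-domain proteins at 0.139, SR proteins at 0.246, ribosomal proteins at 0.052, integrins at 0.01, matrix proteases at 0.311 and the tricarboxylic acid cycle at 0.085. After quantile normalization the BCL2 family was at 0.172, J-domain proteins at 0.019, ribosomal proteins at 0.208, matrix proteases at 0.184 and the tricarboxylic acid cycle at 0.181. The BCL2 family and matrix proteases were at 0.05 and 0.051 after median ratio scaling and at 0.028 and 0.08 without the length trend. With library weights ribosomal proteins were at 0.016 and matrix proteases at 0.11. With genes of at least 5 FPKM, amino acid carriers were at -0.256, claudins and tight junctions at -0.046 and p53 targets at -0.218, and p53 targets were at -0.004 with a pseudocount of 0.1 and -0.007 by voom. With single libraries left out, the medians ran from -0.034 to 0.038 for the BCL2 family, -0.007 to 0.152 for the EGF family, -0.078 to 0.109 for matrix proteases and -0.036 to 0.098 for p53 targets. The median of the WNT list was 0.086 without control replicate 2, 0.018 with genes of at least 5 FPKM and 0.184 with library weights, and that of sugar, ion and vitamin carriers 0.18 without control replicate 2 and 0.188 with genes of at least 5 FPKM. Of the 10 named genes tested and not called, CLU, CDKN1A, ERBB3, WFDC2, CD14, BAG3 and COX1 passed upward under TPM, at 0.307, 0.431, 0.481, 0.412, 0.519, 0.466 and 0.413. After quantile normalization CLU (0.598), CDKN1A (0.7), ERBB3 (0.74) and EMX2 (0.438) passed upward. ERBB3 (0.41), WFDC2 (0.317) and CD14 (0.382) also passed without control replicate 2. With library weights these 3 and CDKN1A passed, and with the length trend removed CDKN1A and CD14 did.

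Replicate numbers were not taken as pairs: after group means were removed, same-numbered control and HS0.5-R36 libraries correlated at 0.28, 0.18 and -0.45. With the numbers as a replicate block 7028 genes were called, 3181 up and 3847 down, 1706 of them past 2-fold (701 up, 1005 down), with a median of -0.061. Differences of weakly expressed genes are limited by depth, and those of short genes by control replicate 2.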
